A study of Mus musculus with 20 samples.

Results

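The genes described here are Abcd2, Lpin1, Rtn4rl1, Lbh and Pik3ip1, 5 of the 55487 genes counted in RNA of BV-2 microglia and 5 of the 12799 genes that passed the filter on low counts. They were chosen from the measured values, as the genes with the deepest fall after lipopolysaccharide (LPS) in young or in aged cells. The fall itself is therefore given below as a description, with no test. Abcd2, Lpin1 and Rtn4rl1 held the first 3 places among the genes that fell in young cells, and Abcd2, Lbh and Pik3ip1 the first 3 places in aged cells. The places were taken by log2 fold change among genes called lower by edgeR whose untreated and LPS libraries did not overlap and whose mean log2 CPM was at least 1, where CPM is the usual scaling of counts to library size, here with TMM factors.

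BV-2 is a mouse microglial cell line established from brain cultures of young C57BL/6 mice, and all cells carried the WT genotype of the line. Young, that is control, BV-2 microglia came from an early passage and aged BV-2 microglia from long-term cultivation of the line, and each was either left untreated or given bacterial LPS at 100 ng/ml for 6 h. Every one of the 4 groups held 5 cultures, numbered as batches 1 to 5 in the labels, so that each batch had 1 culture of every group. Poly(A) RNA was sequenced as stranded libraries. The aged cells were 1 cultivated line and not cells of aged animals, the agent came from Escherichia coli, and the cultures of a group share 1 source of cells, so that p-values measure the spread between cultures of that line.

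LPS is recognised by the TLR4 receptor complex of microglia and macrophages, which switches on NF-kB and interferon programmes and within hours also lowers the mRNA of many genes of the resting cell. The 5 genes belong to unlike parts of the cell. Abcd2 encodes an ABC transporter of the peroxisomal membrane that brings very long-chain and polyunsaturated fatty acyl-CoA into the organelle for shortening. Lpin1 encodes lipin 1, a phosphatidate phosphatase that makes the diacylglycerol used for triglycerides and phospholipids and that can also act in the nucleus as a coactivator. Rtn4rl1 encodes a lipid-anchored surface protein of the Nogo receptor family, studied mainly in neurons as a receptor for inhibitors of axon growth. Lbh encodes a small transcriptional cofactor known from limb and heart development and as a target of Wnt signalling, and Pik3ip1 encodes a transmembrane protein that binds the catalytic subunit of phosphoinositide 3-kinase (PI3K) and restrains it.

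Library totals ranged from 11371508 to 16829292 counts with a median of 14370473, and 3 counts, taken as the floor of detection, corresponded to 0.178 to 0.264 CPM of the unscaled totals. Floors cover counting error only. All 13 microglia and macrophage markers looked at were above that floor in at least 1 library, with a summed level of 2620 to 4727 CPM per library, although the homeostatic markers Cx3cr1 and P2ry12 had group means of only 0.313 to 1.05 CPM and 0.0733 to 1.18 CPM. Marker sums of neurons, astrocytes and oligodendrocytes stayed at or under 0.414, 1.25 and 1.78 CPM. The endothelial list reached 66.2 to 112 CPM, nearly all of it Kdr, while Cldn5, Cdh5 and Tek were at or under the floor in every library. The summed level of 10 LPS-induced genes was 70.8 to 226 CPM in untreated and 3169 to 8535 CPM in LPS-treated libraries, with aged LPS libraries (3169 to 4528 CPM) below all young ones (5720 to 8535 CPM).

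In GRCm38, Abcd2 (ENSMUSG00000055782) lay at chr15:91145871-91191799 on the minus strand, Lpin1 (ENSMUSG00000020593) at chr12:16535669-16610966 on the minus strand and Rtn4rl1 (ENSMUSG00000045287) at chr11:75193783-75267769 on the plus strand. Lbh (ENSMUSG00000024063) lay at chr17:72918305-72941947 and Pik3ip1 (ENSMUSG00000034614) at chr11:3330401-3342971, both on the plus strand. Only Pik3ip1 shared exon bases with another annotated gene, 91 bases with Gm12592 on the opposite strand, which had 0 to 7 counts per library.

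The 250 bases before the RefSeq start of transcription (GRCm38.p6) are shown for the 2 genes with an upstream window in the RefSeq promoter table that does not run into an annotated exon, since both genes fell to a small share of their level and their upstream sequences differ in make-up. The window of Lpin1 is chr12:16610967-16611216, read on the minus strand, and that of Lbh is chr17:72918055-72918304 on the plus strand. Capitals mark matches on either strand to 1 of 8 motifs searched: AP-1 (TGANTCA), NF-kB (GGG and CC with any 5 bases between them), E-box (CACGTG), FoxO (TGTTTAC), TCF/LEF (CTTTGAT), GC box (GGGCGG), PU.1/ETS (GAGGAA) and TATA box (TATAAA).
Lpin1: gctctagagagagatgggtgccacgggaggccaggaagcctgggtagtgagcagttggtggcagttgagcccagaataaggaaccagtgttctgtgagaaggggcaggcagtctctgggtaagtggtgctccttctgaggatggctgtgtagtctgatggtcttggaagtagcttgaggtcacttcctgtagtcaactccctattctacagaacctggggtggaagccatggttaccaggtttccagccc
Lbh: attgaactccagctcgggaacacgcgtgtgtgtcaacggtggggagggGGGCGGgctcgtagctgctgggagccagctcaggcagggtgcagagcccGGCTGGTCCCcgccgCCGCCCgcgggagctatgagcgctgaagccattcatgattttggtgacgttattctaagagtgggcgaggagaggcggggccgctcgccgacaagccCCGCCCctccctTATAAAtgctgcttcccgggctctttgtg
The Lpin1 window held none of the 8 motifs, with 54.8% GC and 1 CpG. The Lbh window had 64.8% GC and 21 CpG, against medians of 52% and 6 over the 27025 promoters of the table. It held 3 GC boxes, which 32.9% of all promoters hold at least once, 1 NF-kB match (45.4% of all promoters) and 1 TATA box (13.0%), with no overlap between them. The window of Pik3ip1 held 1 PU.1/ETS match (23.1% of all promoters), 53.6% GC and 5 CpG. The other motifs were found in 6.87% (AP-1), 6.05% (E-box), 3.09% (FoxO) and 3.23% (TCF/LEF) of all promoters. A match of these letters is a description of the window and not a binding site.

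Abcd2 was one of the better expressed of the 5 genes in resting young cells. With LPS, 4.89% of the young untreated level remained in young cells and 5.96% of the aged untreated level in aged cells. In young untreated cultures it stood at 42.6, 42.8, 40.8, 31.7 and 30.1 CPM in batches 1 to 5, and in young LPS cultures at 2.47, 1.99, 2.14, 1.57 and 1.03 CPM. In aged untreated cultures it stood at 20.9, 21.1, 24.1, 18.2 and 18.2 CPM, and in aged LPS cultures at 0.421, 1.90, 2.00, 0.929 and 0.868 CPM. Young untreated cultures all lay above aged untreated ones and these above both LPS groups, and the 2 LPS groups overlap. The group means were 37.6 ± 6.20 and 1.84 ± 0.56 CPM in young and 20.5 ± 2.44 and 1.22 ± 0.69 CPM in aged cells (SD, n = 5). The fitted LPS change was -4.37 (SE 0.21) in young and -4.07 (SE 0.23) in aged cells on the log2 scale. The lowest value, in aged LPS batch 1, rests on 6 counts, and the LPS libraries of this gene held 6 to 31 counts in all.

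Lpin1 was steady in young untreated cultures, fell to 4.84% of its level with LPS in young cells and to 14.8% in aged cells. Its levels were 25.4, 24.5, 26.1, 23.5 and 23.0 CPM in young untreated and 0.988, 1.41, 0.345, 1.27 and 1.92 CPM in young LPS cultures. In aged cells they were 27.4, 12.5, 14.3, 13.6 and 20.9 CPM untreated and 4.99, 2.06, 1.66, 1.78 and 2.68 CPM with LPS. Batch 1 was highest in both aged groups, and the aged LPS group overlapped the young LPS group, whose top value of 1.92 CPM lay above 2 of the 5 aged values. The means were 24.5 ± 1.31 and 1.19 ± 0.58 CPM in young and 17.7 ± 6.29 and 2.63 ± 1.37 CPM in aged cells (SD, n = 5). The fitted LPS change was -4.37 (SE 0.30) in young cells, where the LPS libraries held 5 to 26 counts, and -2.73 (SE 0.27) in aged cells, where they held 23 to 71.

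Rtn4rl1, a receptor better known from neurons, was measured in every untreated culture and left near the floor by LPS in some young cultures. Its levels were 14.4, 15.2, 19.2, 18.1 and 15.3 CPM in young untreated and 0.296, 0.747, 0.690, 1.42 and 1.55 CPM in young LPS cultures. The first of these LPS values was 3 counts, the only one of the 100 values of these genes at the floor. Aged untreated cultures had 17.4, 13.1, 10.2, 12.9 and 12.3 CPM and aged LPS cultures 1.83, 1.65, 0.966, 1.01 and 1.81 CPM, and both pairs of age groups overlapped. The means were 16.5 ± 2.08 and 0.939 ± 0.53 CPM in young and 13.2 ± 2.62 and 1.45 ± 0.43 CPM in aged cells (SD, n = 5), so that 5.71% and 11.0% of the level remained. The fitted LPS change was -4.07 (SE 0.23) in young and -3.17 (SE 0.21) in aged cells.

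Lbh had a wide spread between batches, and its batches stood in a different order in young and in aged cells. It was at 18.2, 37.9, 38.3, 46.3 and 52.1 CPM in young untreated and at 0.790, 1.74, 2.14, 3.66 and 3.98 CPM in young LPS cultures. Batch 1 was the lowest in both young groups, and the young untreated culture of batch 1 also had a sum of LPS-induced genes of 226 CPM, against 116 to 134 CPM in the other young untreated cultures. The part of this in the low Lbh value was not tested. In aged cells Lbh was at 62.6, 38.1, 24.5, 35.4 and 56.1 CPM untreated and at 6.25, 3.55, 2.21, 2.48 and 6.00 CPM with LPS, with batch 1 the highest in both. The means were 38.6 ± 12.8 and 2.46 ± 1.34 CPM in young and 43.3 ± 15.7 and 4.10 ± 1.92 CPM in aged cells (SD, n = 5), and 6.38% and 9.45% remained after LPS. The fitted LPS change was -3.92 (SE 0.36) and -3.39 (SE 0.33).

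Pik3ip1, the PI3K inhibitor, was reduced to 10.2% of its level in young and to 9.76% in aged cells. Its levels were 20.3, 18.2, 16.4, 16.3 and 14.4 CPM in young untreated and 2.47, 2.32, 1.24, 0.970 and 1.77 CPM in young LPS cultures. Aged cultures had 16.4, 13.6, 11.1, 14.3 and 13.3 CPM untreated and 1.33, 1.15, 2.00, 0.697 and 1.52 CPM with LPS. The age groups overlapped both without and with LPS. The means were 17.1 ± 2.26 and 1.75 ± 0.65 CPM in young and 13.7 ± 1.92 and 1.34 ± 0.48 CPM in aged cells (SD, n = 5), and the fitted LPS change was -3.32 (SE 0.19) and -3.33 (SE 0.20).

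**Figure D1:**
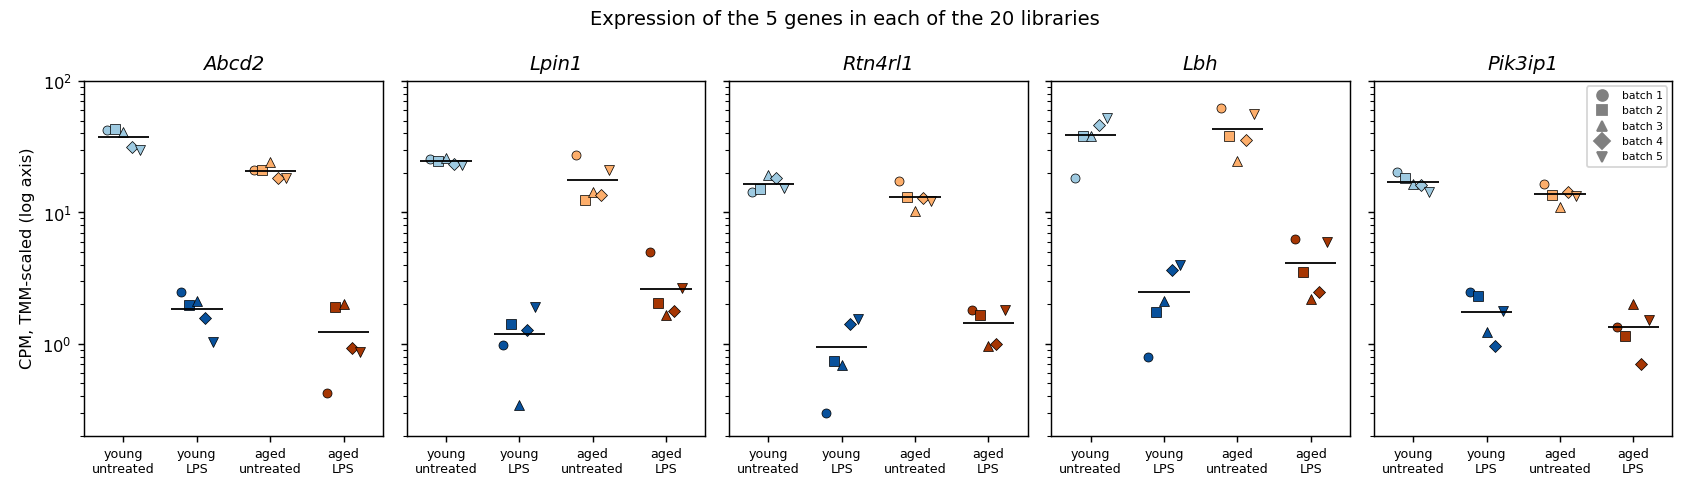
Level of each of the 5 genes (CPM, TMM-scaled, log axis) in the 4 groups, with 1 point per culture, marker shapes for batches 1 to 5 and lines at the group means. The LPS groups lie far below the untreated groups of the same age for every gene, and Abcd2 is the gene whose aged untreated cultures (18.2 to 24.1 CPM) all lie below the young ones (30.1 to 42.8 CPM).

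The untreated and LPS libraries of the same age did not overlap for any of the 5 genes, which the choice of the genes required. Among all genes tested, 25.2% lay lower with LPS without overlap in young cells and 19.1% in aged cells. Some transcript of the 5 genes was still counted after LPS: 49 of the 50 values with LPS, and 99 of all 100, were above 3 counts. Whether the genes were still transcribed at that time was not tested. In bulk RNA, fewer cells that express a gene and less RNA per cell cannot be told apart. Since these libraries did not overlap, the LPS change within each batch had to be negative for all 5 genes at both ages. It ran from -5.77 (Lpin1, young batch 3) to -2.39 (Pik3ip1, aged batch 3) on the log2 scale.

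Per kilobase of exon, resting young cells held most of Lbh, with 12.0 ± 3.99 CPM per kb, followed by Abcd2 (6.32 ± 1.04), Rtn4rl1 (4.67 ± 0.59), Pik3ip1 (4.01 ± 0.53) and Lpin1 (2.54 ± 0.14; SD, n = 5). In this order only Lpin1 was separated from its neighbour in every culture, and the ranges of the other neighbours overlapped. With the longest transcript in place of all exons, Lpin1 rose to 4.39 and Pik3ip1 to 6.65 CPM per kb, which places Pik3ip1 above Rtn4rl1. After LPS the levels in young cells were 0.766 (Lbh), 0.411 (Pik3ip1), 0.309 (Abcd2), 0.267 (Rtn4rl1) and 0.123 CPM per kb (Lpin1). In aged cells they were 1.28, 0.314, 0.206, 0.412 and 0.272 CPM per kb in the same order of genes, so that Abcd2 was the lowest there.

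The genes just outside the choice were close to those inside it. In young cells Rtn4rl1 (-4.07) was followed by Cxcr4 (-3.96, SE 0.14), the receptor of the chemokine Cxcl12, by Dgkg (-3.92, SE 0.31), a diacylglycerol kinase, and, after Lbh in place 6, by Fbxo32 (-3.85, SE 0.29), a ubiquitin ligase component. Pik3ip1 held place 18 of 2958 in young cells. In aged cells Pik3ip1 (-3.33) was followed, among others, by Rtn4rl1 in place 5, Dgkg (-3.10, SE 0.28) and Gpr157 (-3.01, SE 0.14). Lpin1 held place 12 of 2239 in aged cells. Among all genes called lower, whatever their level and overlap, Abcd2 was in place 4 at both ages. On the same count Lpin1 was in place 5 and Rtn4rl1 in place 8 in young cells. Lbh was in place 11 and Pik3ip1 in place 13 in aged cells.

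The sizes of the LPS change in young and aged cells are set side by side here without a test, since the genes were chosen on them. The change of Lpin1 was smaller in aged cells by 1.63 (SE 0.44) on the log2 scale and that of Rtn4rl1 by 0.90 (SE 0.35), and for both genes the aged change was the smaller one within each of the 5 batches. For Lpin1 the within-batch difference ran from 0.59 to 2.75 and for Rtn4rl1 from 0.050 to 1.91. The difference was 0.30 (SE 0.36) for Abcd2 and 0.53 (SE 0.53) for Lbh, with 4 of 5 batches above 0 for each, and -0.014 (SE 0.28) for Pik3ip1, with 1 of 5 above 0. Lpin1 and Rtn4rl1 were picked for their fall in young cultures and Lbh and Pik3ip1 for their fall in aged cultures, so the direction of these differences is not independent of the choice.

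**Figure D2:**
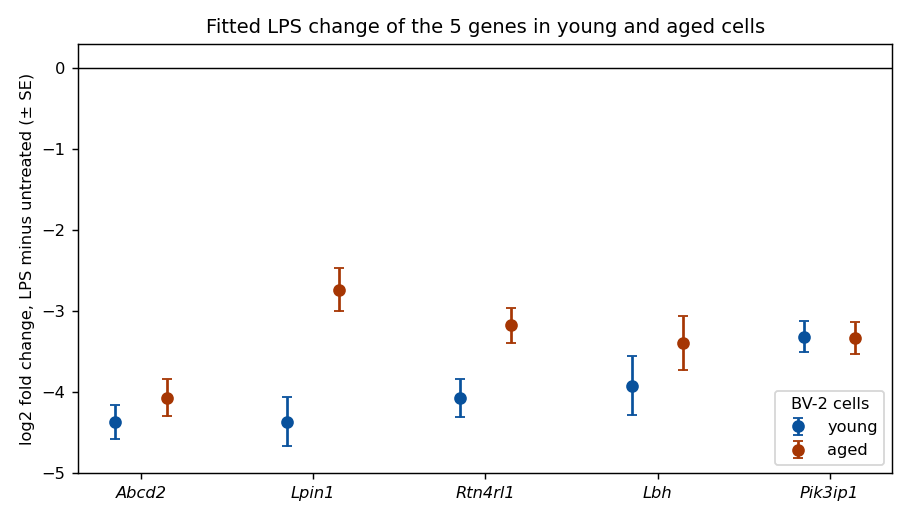
Fitted log2 fold change of LPS minus untreated cultures for the 5 genes in young and aged BV-2 cells, with bars of ± 1 SE from the edgeR fit. The values in young and aged cells are -4.37 and -2.73 for Lpin1, -4.07 and -3.17 for Rtn4rl1 and -3.32 and -3.33 for Pik3ip1.

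Whether aged and young cells differed in the level of the 5 genes, at rest or with LPS, was tested with edgeR. The choice did not use these comparisons, but it used the same cultures, so the tests are not independent of it. A deep fall favours high untreated and low LPS values in the age on which a gene was chosen. At rest, 1 of the 5 genes was called, where 11.5% of all genes were. Abcd2 was lower in aged untreated cells by -0.87 (SE 0.15) on the log2 scale (adjusted p = 6.11e-04), and lower within each of the 5 batches, by -1.02 to -0.72. The call held in all 12 alternatives, with adjusted p from 3.82e-08 to 0.0134. For comparison, 7.81% of all genes were called lower in aged untreated cells and 6.63% lay lower without overlap.

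Lpin1 differed at rest by -0.47 (SE 0.21, adjusted p = 0.159), lower in 4 of 5 batches. With the batch as a block the difference was -0.53 and was called with edgeR (adjusted p = 0.0361) but not with DESeq2 (-0.55, adjusted p = 0.0561), and without batch 1, whose aged culture was the highest, it was -0.67 (adjusted p = 0.0194). Rtn4rl1 differed by -0.32 (SE 0.16, adjusted p = 0.203), lower in 4 of 5 batches, and by -0.49 without batch 1 (adjusted p = 0.0384), but by -0.18 without batch 3 (adjusted p = 0.556). Pik3ip1 differed by -0.32 (SE 0.15, adjusted p = 0.173) and was lower within all 5 batches, by -0.56 to -0.11. Lbh differed by 0.16 (SE 0.27, adjusted p = 0.762), with batch 1 at 1.77 and the other batches at -0.64 to 0.11, and without batch 1 the difference was -0.18. The choice of Lpin1 and Rtn4rl1 on their fall in young cultures favours high young untreated values and so a lower aged level at rest. That of Lbh and Pik3ip1 on aged cultures favours the opposite. The directions at rest, with the calls of Lpin1 and Rtn4rl1 in some alternatives, are therefore not independent of the choice.

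With LPS, 1 of the 5 genes was called between aged and young cells, where 29.0% of all genes were. Lpin1 was higher in aged LPS cultures by 1.16 (SE 0.39, adjusted p = 0.0286), higher within each of the 5 batches by 0.45 to 2.19, although the groups overlapped. The call rests on few counts and was lost without batch 1 (0.75, adjusted p = 0.112), batch 2 (1.30, adjusted p = 0.0549) or batch 3 (1.03, adjusted p = 0.0609), and held in 9 of 12 alternatives. The other genes were not called. Abcd2 differed by -0.57 (SE 0.32, adjusted p = 0.195), with batch 1 at -2.22 and the others at -0.68 to -0.065. Rtn4rl1 differed by 0.58 (SE 0.32, adjusted p = 0.189) and Lbh by 0.70 (SE 0.46, adjusted p = 0.280), each higher in 4 of 5 batches and each with its highest difference in batch 1 (2.18 and 2.78). Pik3ip1 differed by -0.33 (SE 0.27, adjusted p = 0.394), lower in 4 of 5 batches. Lpin1 and Rtn4rl1 were chosen for their fall in young cultures, which favours low young LPS values and so a higher aged level. Lbh and Pik3ip1 were chosen for their fall in aged cultures, which favours the opposite. The directions with LPS, that of the Lpin1 call included, are therefore not independent of the choice.

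**Figure D3:**
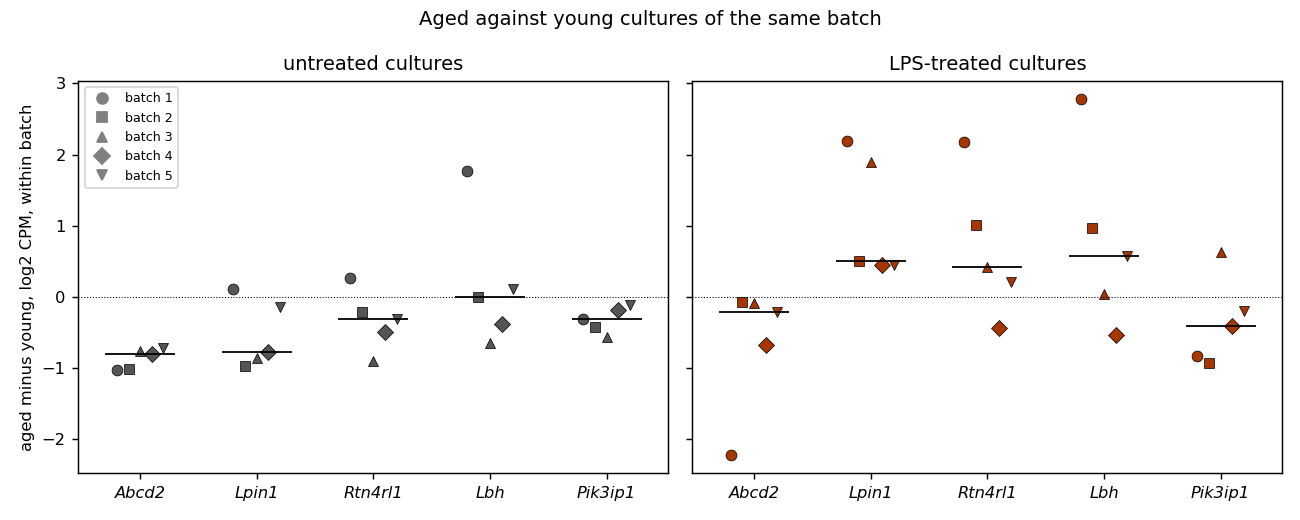
Difference of aged minus young cultures of the same batch in log2 CPM for the 5 genes, left without and right with LPS; 1 point per batch, lines at the medians and a dotted line at 0. Abcd2 at rest is below 0 in every batch (-1.02 to -0.72), Lpin1 with LPS is above 0 in every batch (0.45 to 2.19), and batch 1 lies far from the others for Lbh in both panels.

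The 5 genes were next placed beside their relatives and the other genes of their pathways, from 5 lists of 125 genes in all, of which 95 were tested. In young cells LPS changed 64.6% of all genes tested (31.2% higher, 33.5% lower) and in aged cells 54.4% (27.5% higher, 26.9% lower), with a median change of -0.011 and 5.1e-04. The scaling matters for these smaller changes: with library sizes alone, the median of all genes was -0.23 in young and -0.16 in aged cells, and only 27.3% and 28.4% of the called genes were higher, against 48.2% and 50.6% with TMM. The same scaling moved the share of higher calls in aged against young cells from 32.2% to 42.2% at rest and from 48.3% to 70.1% with LPS, and the median of all genes with LPS from 0.0085 to 0.088. The number of calls over all genes also depended on the fit. In aged against young cells at rest it was 1475, and 2204 with the batch as a block and 548 without batch 2. With LPS it was 3717, and 4280 with the block and 2156 without batch 2. The LPS response itself differed between the ages in 15 of the 95 tested genes of the lists, where 6.39% of all genes tested did.

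Among peroxisomal genes of fatty acid transport and oxidation, Abcd3 and Abcd4, of the same transporter family, changed far less than Abcd2 itself. Abcd3, the transporter of branched-chain and long-chain acyl-CoA, stood at 52.4 ± 4.43 and 47.1 ± 1.03 CPM in young and at 49.1 ± 2.62 and 47.9 ± 2.69 CPM in aged cells without and with LPS (SD, n = 5). Its log2 change was -0.15 in young (adjusted p = 0.0251, called in 7 of 13 alternatives) and -0.038 in aged cells (adjusted p = 0.604). Abcd4, which serves cobalamin transport in lysosomes, rose by 0.59 (adjusted p = 9.66e-06) in young cells and by 0.26 (adjusted p = 0.0223) in aged cells, where the call was lost with library sizes alone (0.10), without batch 1 (0.19) and without batch 5 (0.23). The deepest falls of the list were those of Crot, peroxisomal carnitine O-octanoyltransferase (-1.77 and -1.28, adjusted p = 1.15e-11 and 2.91e-09), and Acox3, an acyl-CoA oxidase (-1.28 and -0.84, adjusted p = 1.72e-06 and 5.31e-04). Of 17 tested genes 5 rose and 11 fell in young and 5 rose and 9 fell in aged cells, with medians of -0.18 and -0.16. With library sizes alone 2 rose and 13 fell, and 1 rose and 12 fell.

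Acox3 was also lower by -0.80 (SE 0.17, adjusted p = 0.00453) in aged cells at rest, a call lost without batch 2 (-0.71, adjusted p = 0.0664). In this list 0 genes were called higher and 7 lower in aged cells at rest (3.71% and 7.81% of all genes), with a median of -0.12 against -0.014 over all genes. That count was 2 without batch 2 and 3 without batch 1 or batch 5. With LPS, 1 was called higher and 4 lower (14.0% and 15.0% of all genes), with 5 higher and 3 lower under library sizes alone and 2 called without batch 2.

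In glycerolipid synthesis, the relatives of Lpin1 did not share its fall. Lpin2 stood at 61.7 ± 5.01 and 59.2 ± 3.17 CPM in young and at 54.7 ± 3.11 and 53.9 ± 2.19 CPM in aged cells without and with LPS and was not called (-0.060 and -0.020, adjusted p = 0.379 and 0.793), although it was called lower with library sizes alone (-0.28 and -0.18). Lpin3 had 0 counts in all 20 libraries. The largest changes of the list went the other way: Plpp1 and Plpp3, phosphatases that act on lipid phosphates at the cell surface, rose by 3.00 and 2.79 in young cells (adjusted p = 1.54e-18 and 3.29e-14) and by 2.51 and 2.09 in aged cells (adjusted p = 2.18e-17 and 5.31e-12). Plpp1 shares 452 exon bases with Mtrex on the opposite strand. Of 22 tested genes 10 rose and 4 fell in young and 9 rose and 4 fell in aged cells. The list's medians were 0.081 and 0.070, and turned to -0.14 and -0.090 with library sizes alone, where 8 rose and 12 fell, and 7 rose and 8 fell. In aged against young cells 0 were called higher and 1 lower at rest (3 higher and 1 lower with the batch as a block, 2 higher and 0 lower with library sizes alone). With LPS, 4 were higher and 5 lower (14.0% and 15.0% of all genes), and 7 and 4 with library sizes alone.

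The other members of the Nogo receptor family and most of their neuronal partners had few or no counts in these cells. Rtn4r, the Nogo receptor itself, reached at most 9 counts and Rtn4rl2 at most 1, and neither was tested. Among the listed ligands, co-receptors and related genes, Mag, Omg and Ptprf reached at most 3, 2 and 2 counts, and Lingo1, Ngfr, Tnfrsf19 and Rtn1 had 0 in all libraries. Lilrb3, listed in the annotation as Pirb, an inhibitory receptor of myeloid cells that also binds Nogo, rose from 1.15 ± 0.47 to 7.10 ± 1.82 CPM in young and from 0.726 ± 0.27 to 3.58 ± 0.44 CPM in aged cells (2.62 and 2.29, adjusted p = 9.09e-10 and 1.17e-07), but it belongs to a family of near-identical genes, so that its counts are uncertain. Among the other expressed genes of the list, some are named here after their values were seen. Rtn4, which encodes Nogo itself, rose from 257 ± 15.0 to 756 ± 110 CPM in young and from 225 ± 18.2 to 503 ± 30.5 CPM in aged cells (1.56 and 1.16, adjusted p = 9.00e-14 and 2.34e-11). S1pr2, a receptor that also binds Nogo, rose by 0.90 and 0.75 (adjusted p = 1.77e-10 and 6.95e-09), and Ptprs, a receptor phosphatase for proteoglycans, by 0.67 and 0.73 (adjusted p = 4.35e-06 and 2.21e-06). Rtn2, a reticulon of the endoplasmic reticulum, rose by 1.71 and 1.34 (adjusted p = 3.45e-11 and 3.90e-09). Of 10 tested genes 7 rose and 0 fell in young and 9 rose and 0 fell in aged cells, with medians of 0.46 and 0.48. With library sizes alone 5 rose and 2 fell, and 5 rose and 0 fell, with medians of 0.24 and 0.32. In aged cells 0 genes were higher and 1 lower at rest (0 and 4 with the batch as a block, 0 and 0 with library sizes alone). With LPS 0 were higher and 6 lower (14.0% and 15.0% of all genes), and 3 were called, all lower, with library sizes alone; 3 were called without batch 2, batch 3 or batch 5.

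Wnt and beta-catenin genes, chosen for Lbh, changed in both directions. Lrp5, a Wnt co-receptor, fell from 251 ± 8.03 to 116 ± 4.01 CPM in young (-1.11, SE 0.045, adjusted p = 1.74e-15) and from 235 ± 10.9 to 141 ± 7.68 CPM in aged cells (-0.73, SE 0.045, adjusted p = 3.38e-12). Fzd5, a Frizzled receptor, rose by 1.43 and 1.41 (adjusted p = 9.06e-08 and 1.31e-07). The Wnt transcription factors Lef1 and Tcf7l1 had 0 counts in all libraries and Tcf7 at most 1. Tcf7l2, the expressed member of that family, named after its values were seen, fell from 17.2 ± 2.33 to 12.0 ± 1.52 CPM in young (-0.51, adjusted p = 1.11e-04) and from 15.5 ± 1.04 to 11.6 ± 1.11 CPM in aged cells (-0.42, adjusted p = 0.00125). Of 17 tested genes 4 rose and 10 fell in young cells and 6 rose and 6 fell in aged cells, with medians of -0.24 and -0.10. With library sizes alone the counts were 2 and 12 in young and 1 and 8 in aged cells. In aged against young cells 0 were higher and 2 lower at rest (1 higher and 4 lower with the batch as a block, and 0 called with library sizes alone or without batch 2, batch 4 or batch 5). With LPS, 6 were higher and 1 lower (14.0% and 15.0% of all genes), 8 and 0 with library sizes alone, and 4 were called without batch 2, batch 4 or batch 5.

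Around Pik3ip1, the subunits of PI3K moved in opposite directions after LPS. Of the catalytic subunits, Pik3cb rose from 53.3 ± 3.25 to 124 ± 5.27 CPM in young and from 54.8 ± 2.57 to 119 ± 5.97 CPM in aged cells (1.22 and 1.11, adjusted p = 3.07e-15 and 2.67e-14). Pik3ca fell by 0.37 and 0.31 (adjusted p = 1.48e-06 and 3.16e-05) and Pik3cd by 0.50 and 0.46 (adjusted p = 1.58e-06 and 8.53e-06), while Pik3cg was not called (-0.050 and 0.0016, adjusted p = 0.649 and 0.990). Of the regulatory subunits, Pik3r1 rose by 0.84 and 0.42 (adjusted p = 8.97e-10 and 3.84e-05) and Pik3r3 by 1.18 and 0.86 (adjusted p = 1.65e-07 and 1.70e-05), and Pik3r2 fell by 1.34 and 0.94 (adjusted p = 3.53e-15 and 2.35e-12). Pik3r3 shares 1289 exon bases with Gm49337 on the same strand. Pik3r5, the regulatory partner of the gamma subunit, and Pik3ap1, an adaptor that brings PI3K to immune receptors, had the largest mean changes over both ages among the list's genes called at both, 2.33 and 2.00 (adjusted p = 1.44e-19 and 7.92e-19) and 1.82 and 1.53 (adjusted p = 2.89e-15 and 9.26e-14).

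All 29 PI3K and AKT genes were tested, of which 7 rose and 16 fell in young and 7 rose and 12 fell in aged cells, with medians of -0.15 and -0.031. With library sizes alone 6 rose and 22 fell, and 7 rose and 16 fell. In aged cells 0 were higher and 5 lower at rest (1 and 8 with the batch as a block, 0 and 3 with library sizes alone, 2 called without batch 2, and 3 without batch 4 or batch 5). With LPS 7 were higher and 6 lower (14.0% and 15.0% of all genes), 9 and 5 with library sizes alone, and 8 were called without batch 2. Without a block and with TMM, no gene of the 5 lists was called higher in aged cells at rest, where 3.71% of all genes were. With the batch as a block 6 were, 3 of them in the glycerolipid list and 1 each in the peroxisomal, Wnt and PI3K lists, and with library sizes alone 3 were, 1 in the peroxisomal and 2 in the glycerolipid list. Of all 12799 genes, 768 were called higher with the block and 632 with library sizes alone, against 475 without a block and with TMM.

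**Figure D4:**
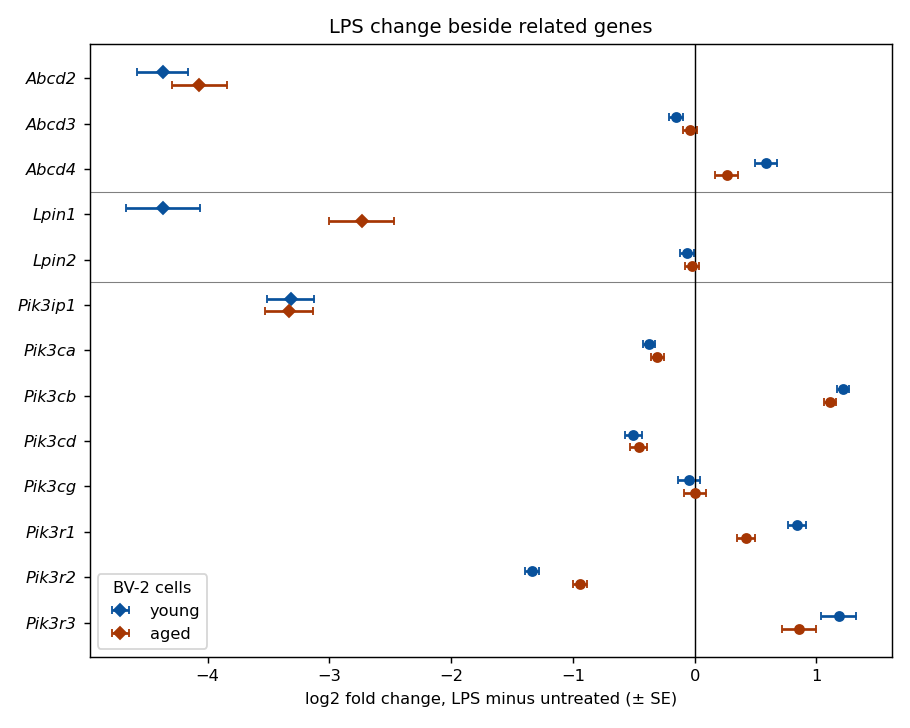
Fitted log2 fold change of LPS minus untreated cultures (± SE, edgeR) for Abcd2, Lpin1 and Pik3ip1 (diamonds) and for related genes tested (circles), in young and aged BV-2 cells. The related genes plotted, which leave out Pik3r5 (2.33 and 2.00), lie between -1.34 and 1.22, whereas the 3 chosen genes lie between -4.37 and -2.73.

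How alike the 5 genes were across the 20 libraries is mostly the split between untreated and LPS cultures, for which they were chosen, and libraries of a batch and group are shared between genes. Pearson's r of log2 CPM over the 20 libraries was 0.847 to 0.982 over the 10 pairs of genes. After the group means were removed, the pairs differed. Rtn4rl1 and Lbh deviated together (r = 0.86 over 20 libraries; Spearman's rho 0.86), Lpin1 went with Rtn4rl1 (0.53) and with Lbh (0.50), and Abcd2 deviated against Lbh (-0.66), Lpin1 (-0.59) and Rtn4rl1 (-0.54). Pik3ip1 showed r of -0.26 to 0.26 with the others over all libraries, and over the untreated ones 0.49 with Lpin1 and 0.44 with Rtn4rl1 (-0.25 with Rtn4rl1 over all libraries). Batch 1 stood at the edge of several groups, with Lbh and Rtn4rl1 lowest in its young LPS culture and highest in both aged cultures. Without batch 1, a choice made after seeing the data, r over 16 libraries was 0.80 for Rtn4rl1 and Lbh, -0.65 for Abcd2 and Lbh and -0.47 for Abcd2 and Lpin1. Over the untreated libraries alone, r was 0.64 for Rtn4rl1 and Lbh and -0.64 for Abcd2 and Lbh, but 0.022 for Abcd2 and Lpin1.

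Among the 10883 tested genes with a mean log2 CPM of at least 1, the 3 genes most like each of the 5 in Pearson's r over the 20 libraries were named. Abcd2 was most like Igfbp4, an insulin-like growth factor binding protein (0.987), Ptgs1, cyclooxygenase 1 (0.987), and Nfam1, an immune receptor adaptor (0.984). Lpin1 was most like Kank2 (0.985), Mblac2 (0.985) and Slc17a5, the lysosomal sialic acid exporter (0.980). Rtn4rl1 was most like Rgs2, a regulator of G protein signalling (0.990), Fhod1, a formin (0.987), and Chst10, a sulfotransferase (0.986). Lbh was most like Rgs2 (0.983), Rtn4rl1 (0.982) and Fbxw4 (0.980), and Pik3ip1 most like Maged1, Abca9 and Hey1, all at 0.979. After the group means were removed, r with these same neighbours was lower, from 0.55 (Hey1 with Pik3ip1) to 0.87 (Fbxw4 with Lbh). At both ages the fitted fall of these neighbours was smaller than that of the gene they resemble, except in young cells for Rtn4rl1 beside Lbh and for Hey1, a Notch target, which fell by 3.45 in young and 2.89 in aged cells on the log2 scale. Rgs2, for example, fell from 89.0 to 14.6 CPM in young and from 84.4 to 21.1 CPM in aged cells.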

How the data were processed

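RNA-seq was made from 20 BV-2 cultures in 4 groups of 5. Per the labels and the study's methods, the authors prepared stranded mRNA libraries, checked reads with FastQC (0.11.8), aligned them to GRCm38 with STAR (2.6.1d) and counted them per gene with featureCounts (1.5.1). The authors deposited whole-number counts per Ensembl gene, not normalized. The strand setting of the counting is not given in the sources used here, so overlapping genes and near-identical copies are uncertain. Group and replicate number came from the column names, which match the labels and do not themselves name a batch. Of 55487 identifiers, 55227 were in the annotation (GENCODE, GRCm38).

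Counts were tested with edgeR 4.0.16 (limma 3.58.1, R 4.3.3), by quasi-likelihood F-tests in 1 fit of all 20 libraries without covariates, after TMM and filterByExpr (12799 genes kept), and Benjamini-Hochberg adjustment over these, with genes at adjusted p under 0.05 called. SE is the absolute log2 fold change divided by the square root of F. Log2 CPM used a prior count of 2. Totals and floors limit values with LPS, where counts were few. Promoters came from RefSeq, which held 3 of the 5 genes. The edgeR fits, with and without the batch as a block, and the DESeq2 fit without it were run on simulated counts. These counts held changes in the aged untreated group alone and no batch effect.

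The members and the lists were chosen with earlier results of these data known. Named genes were the 5 genes, their relatives, the PI3K subunits, in each list the 2 genes with the largest LPS change called at both ages, the 3 most alike genes per member and the 3 next in each LPS ranking after the genes chosen there. Of these, 2 genes are not reported here. The labels give the replicate number as a batch, which pairs the cultures. Deviations from group means of same-numbered cultures had a mean correlation of 0.146 over 30 pairs (-0.214 to 0.394), against -0.036 over 120 pairs of different numbers. The second value is no independent baseline, since deviations cancel out within each group. Same-numbered untreated and LPS cultures of the same age had r of 0.122 to 0.394. Across ages r was -0.214 to 0.275, and in batch 1 it was negative for every such pair (-0.214 to -0.042). Alternatives were the batch as a block, DESeq2 1.42.0 with and without it, DESeq2 size factors, library sizes alone, no filter, at least 10 counts in every library, only the groups compared, each batch left out, Spearman's rho and the longest transcript.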

Additional observations from a re-analysis of the deposited data

Results flagged for a closer look

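Of the 95 tested genes of the pathway lists, 15 were called for a difference between the ages in their LPS response, where 6.39% of all genes were. Among those chosen by the rule for named genes, 6 differed between aged and young cells in their LPS response, by the interaction term of the edgeR fit (aged minus young response, log2 scale). Rtn4, named after its values were seen, rose less in aged cells (-0.39, adjusted p = 0.0344). None of the 5 chosen genes was tested in this way.

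Of the 6 genes, 4 responded less in aged cells than in young ones while rising in both: Plpp1 (-0.49, adjusted p = 0.00778), Plpp3 (-0.71, adjusted p = 0.0232), Pik3r1 (-0.42, adjusted p = 0.0167) and Pik3r5 (-0.33, adjusted p = 0.00336). Lrp5 (0.38, adjusted p = 8.84e-04) and Pik3r2 (0.40, adjusted p = 0.00351) fell less in aged cells. Each gene kept the direction of the difference in all 12 alternatives. The call of Lrp5 held in all 12, those of Plpp1, Pik3r2 and Pik3r5 in 11 and those of Plpp3 and Pik3r1 in 9. Without batch 2 the adjusted p was 0.0838 for Plpp1, 0.179 for Plpp3, 0.130 for Pik3r1, 0.0628 for Pik3r2 and 0.0535 for Pik3r5. It was also above 0.05 for Plpp3 without batch 4 (0.0587) or batch 5 (0.0663), and for Pik3r1 without batch 3 (0.0731) or batch 5 (0.0792).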

How the results depend on the processing

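For the 5 genes, the LPS changes kept their direction in all 12 alternatives that tested them, from -4.65 to -3.18 in young and -4.29 to -2.67 in aged cells. The genes were chosen for this fall, so the kept direction is no independent support for it. Under at least 10 counts in every library, 0 of the 5 genes were left to test. With the replicate block in edgeR, 2 of the 5 genes were called between aged and young untreated cells, against 1 without it. Of the pathway genes 30 were called, against 16, and of all 12799 genes 2204, against 1475. With DESeq2 and the block 29 pathway genes and 2233 of 12743 genes were called. The block changed no other call of the 5 genes in edgeR. With DESeq2 and the block 1 of the 5 was called at rest, with Lpin1 at -0.55 (adjusted p = 0.0561). Leaving out 1 batch gave 1 to 3 of the 5 genes at rest, with 3 without batch 1, and 0 to 1 with LPS, with 0 without batch 1, 2 or 3. For the pathway genes it gave 4 to 13 at rest, with 4 without batch 2, and 23 to 37 with LPS, with 23 without batch 2, against 40 with all batches. The calls over all genes moved too. They were 548 to 1193 at rest and 2156 to 3563 with LPS, both lowest without batch 2, against 1475 and 3717 with all batches. The difference of Lbh at rest turned to -0.18 without batch 1, and reached 0.31 without batch 3. The median correlation of the pairs of genes was 0.919 by Pearson's r and 0.808 by Spearman's rho. Of the 58 results of named pathway genes, 41 kept call and direction in every alternative. Changes near 0 turned sign. Pik3cg in aged cells was -0.0042 with DESeq2, -0.0077 with DESeq2 and the block, -0.0013 with the edgeR block, -0.0030 with DESeq2 size factors, -0.16 with library sizes alone, -0.015 without a filter, -5.9e-04 with at least 10 counts, -2.4e-04 with only the groups compared, -0.075 without batch 3 and 0.037 without batch 5, and in young cells 0.0083 without batch 4. With 1 batch left out, Lpin2 in aged cells was -0.048 (without batch 3) to 0.014 (batch 2), and Abcd3 -0.076 (batch 2) to 0.0040 (batch 4). The cause was not tested. Depth limits the LPS values of the 5 genes, which rest on 3 to 89 counts per library.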
